A study of Mus musculus with 2 samples.

Results

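The genes described here are 10 secreted proteins of the extracellular matrix: the thrombospondins Thbs1 and Thbs2, fibronectin (Fn1), periostin (Postn), tenascin C (Tnc), Sparc and the CCN family members Ccn1, Ccn2, Ccn3 and Ccn5. They were taken by name from the 33696 features of the count matrices, and all 10 were present in both. Their levels were followed across smooth muscle, modulated, chondrocyte-like, fibroblast, endothelial and macrophage cells of the mouse aorta, together with the ratio between genotypes in each. Droplet single-cell RNA libraries were made from the aorta of WT mice and of mice titled Kif13b-/-, 1 library each. The genotype field of the second library reads knock down where its title gives -/-, and the text below calls it the Kif13b-/- library. Strain, sex, age and diet, and how many aortas went into a library, are not given in the sources used here. Kif13b encodes a kinesin motor protein.

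Matricellular proteins are secreted into the matrix but act mainly on cells rather than as scaffold. They bind integrins, syndecans, CD36, CD47 and growth factors, and are made in bursts during development, injury and remodelling. In the artery wall smooth muscle cells, fibroblasts and cells that have lost the contractile state are known sources. Ccn1 and Ccn2 are classic targets of the YAP and TEAD transcription factors and of TGF-beta, and Ccn1 is also an immediate early gene that responds to serum and tissue handling. Fibronectin is a structural glycoprotein as well, and is included because several of the others bind it.

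The matrices held 21126 wild-type and 7766 Kif13b-/- barcodes, although about 6000 cells were loaded and 3000 targeted per library, so some barcodes cannot be whole single cells. After filters 16686 and 6887 barcodes were analysed, and 38 barcode sequences occurred in both libraries among them. The median depth was 2162.5 UMIs (unique transcript molecules) per wild-type barcode and 5384.5 per Kif13b-/- barcode before filters. Kif13b itself was counted at 70.5 CPM (UMIs of a gene scaled to a common total of UMIs) over all wild-type barcodes and 43.8 CPM over all Kif13b-/- barcodes; a 3' count need not lie in the altered part of the gene and does not check the genotype. With 1 library per genotype there is no replicate and no test: the intervals below are exact 95% counting intervals, they cover counting error only, and a difference between libraries cannot be told apart from a difference between genotypes. Fewer transcribing cells in a class and less RNA per cell cannot be told apart in a class sum.

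Cells were named from markers. Smooth muscle-like cells (1842 wild-type and 747 Kif13b-/- barcodes) had Acta2 at 12223 and 12082 CPM. The modulated cells of the list corresponded to a cluster led by Crabp2, F5 and Grin2a (1033 and 552 barcodes), whose Acta2 level was only 1167 and 908 CPM, while Dcn, a fibroblast gene, reached 7710 and 9198 CPM. The counts carry no lineage label that ties it to smooth muscle, so it is called the Crabp2 Cst6 Grem1 stromal cluster here. Unnamed cluster 29, described below, also carried Acta2 and Lum and could be a further candidate for modulated cells. Chondrocyte-like cells numbered 2482 and 309, fibroblast-like 1661 and 755, endothelial-like 2319 and 559, and macrophage-like 2520 and 1308. The median depth per barcode was higher in the Kif13b-/- library in all 6 classes. B cell-like cells (134 and 87 barcodes), which should lack these transcripts, served as the reference for free RNA, although they carried Dcn at 587 and 1355 CPM themselves. Single barcodes weighed heavily in this reference: 1 barcode held 234 of its 566 wild-type Fn1 UMIs, and 1 barcode 517 of the 900 Kif13b-/- ones. In the Kif13b-/- library 1 barcode likewise held 42 of 60 Ccn1 UMIs, 16 of 48 Tnc UMIs and 12 of 33 Ccn5 UMIs. T cell-like cells were not used for this, since their Dcn level was 3099 and 8484 CPM.

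In mm10 Thbs1 lies at chr2:118111876-118127133 (plus strand), Thbs2 at chr17:14665500-14694235 (minus), Fn1 at chr1:71585520-71653200 (minus), Postn at chr3:54361109-54391037 (plus) and Tnc at chr4:63959785-64047015 (minus). Sparc lies at chr11:55394500-55423183 (minus), Ccn1 at chr3:145646976-145649981 (minus), Ccn2 at chr10:24595442-24598683 (plus), Ccn3 at chr15:54745702-54754039 (plus) and Ccn5 at chr2:163820861-163833146 (plus). The 4 CCN genes each have up to 5 annotated exons, against up to 46 in Fn1. Thbs1, Fn1, Tnc and Ccn2 overlap a gene on the other strand (Gm29233, Apol7d, 8030451A03Rik and Gm15270), and the sources used here do not say whether counting used the strand.

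A RefSeq promoter window was found for 5 of the 10 genes (Thbs2, Postn, Tnc, Sparc and Ccn1). The 250 bases before the start are shown for Ccn1, one of the pair that passed 1.5-fold in smooth muscle-like cells, and for Postn, also highest in those cells, at the start nearest the annotated gene. Both are 5′ to 3′ on the gene's strand in GRCm38.p6, chr3:145649986-145650235 on minus for Ccn1 and chr3:54360857-54361106 on plus for Postn. Capitals mark matches to motifs, each searched on both strands. The TEAD element was read as CATTCC. The cyclic AMP response core was read as ACGTCA, the AP-1 site with its free middle base as TGANTCA, and the TATA box by its letters TATAAA. The CArG box was searched by its consensus.
Ccn1: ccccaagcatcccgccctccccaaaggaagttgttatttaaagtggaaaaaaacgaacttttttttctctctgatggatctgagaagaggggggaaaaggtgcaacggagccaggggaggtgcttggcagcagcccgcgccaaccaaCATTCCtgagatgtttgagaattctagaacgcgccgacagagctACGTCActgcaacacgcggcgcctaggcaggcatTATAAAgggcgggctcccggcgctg
Postn: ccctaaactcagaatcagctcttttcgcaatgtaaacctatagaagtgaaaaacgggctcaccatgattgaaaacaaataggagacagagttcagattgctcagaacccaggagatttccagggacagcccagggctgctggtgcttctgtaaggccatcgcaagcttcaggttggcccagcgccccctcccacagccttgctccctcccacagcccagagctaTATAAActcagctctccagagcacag
Ccn1 held a TEAD element at -103 to -98, a cyclic AMP response core at -59 to -54 and a TATA box at -25 to -20, counted in bases from the start. Postn held a TATA box at -26 to -21 and none of the other motifs in this window. Of 32851 windows of the same length, 12.6% held CATTCC, 6.47% ACGTCA, 6.75% the AP-1 site, 12.4% TATAAA and 1.47% a CArG box, so single matches are common and each is a description of letters, not of a site in use.

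Across cells the 10 genes fell into different territories, which the plot of levels by class shows. In both libraries Postn, Ccn1 and Ccn3 were highest in smooth muscle-like cells, Tnc and Ccn5 in the Crabp2 Cst6 Grem1 stromal cluster, and Fn1 and Sparc in chondrocyte-like cells. These 7 of 10 genes kept the same highest class in both libraries. The other 3 were Thbs1, Thbs2 and Ccn2. The span between the highest and lowest class was narrowest for Thbs1, 1.77-fold (wild-type) and 2.20-fold (Kif13b-/-), and widest for Sparc, 31.0-fold and 33.2-fold.

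**Figure D1:**
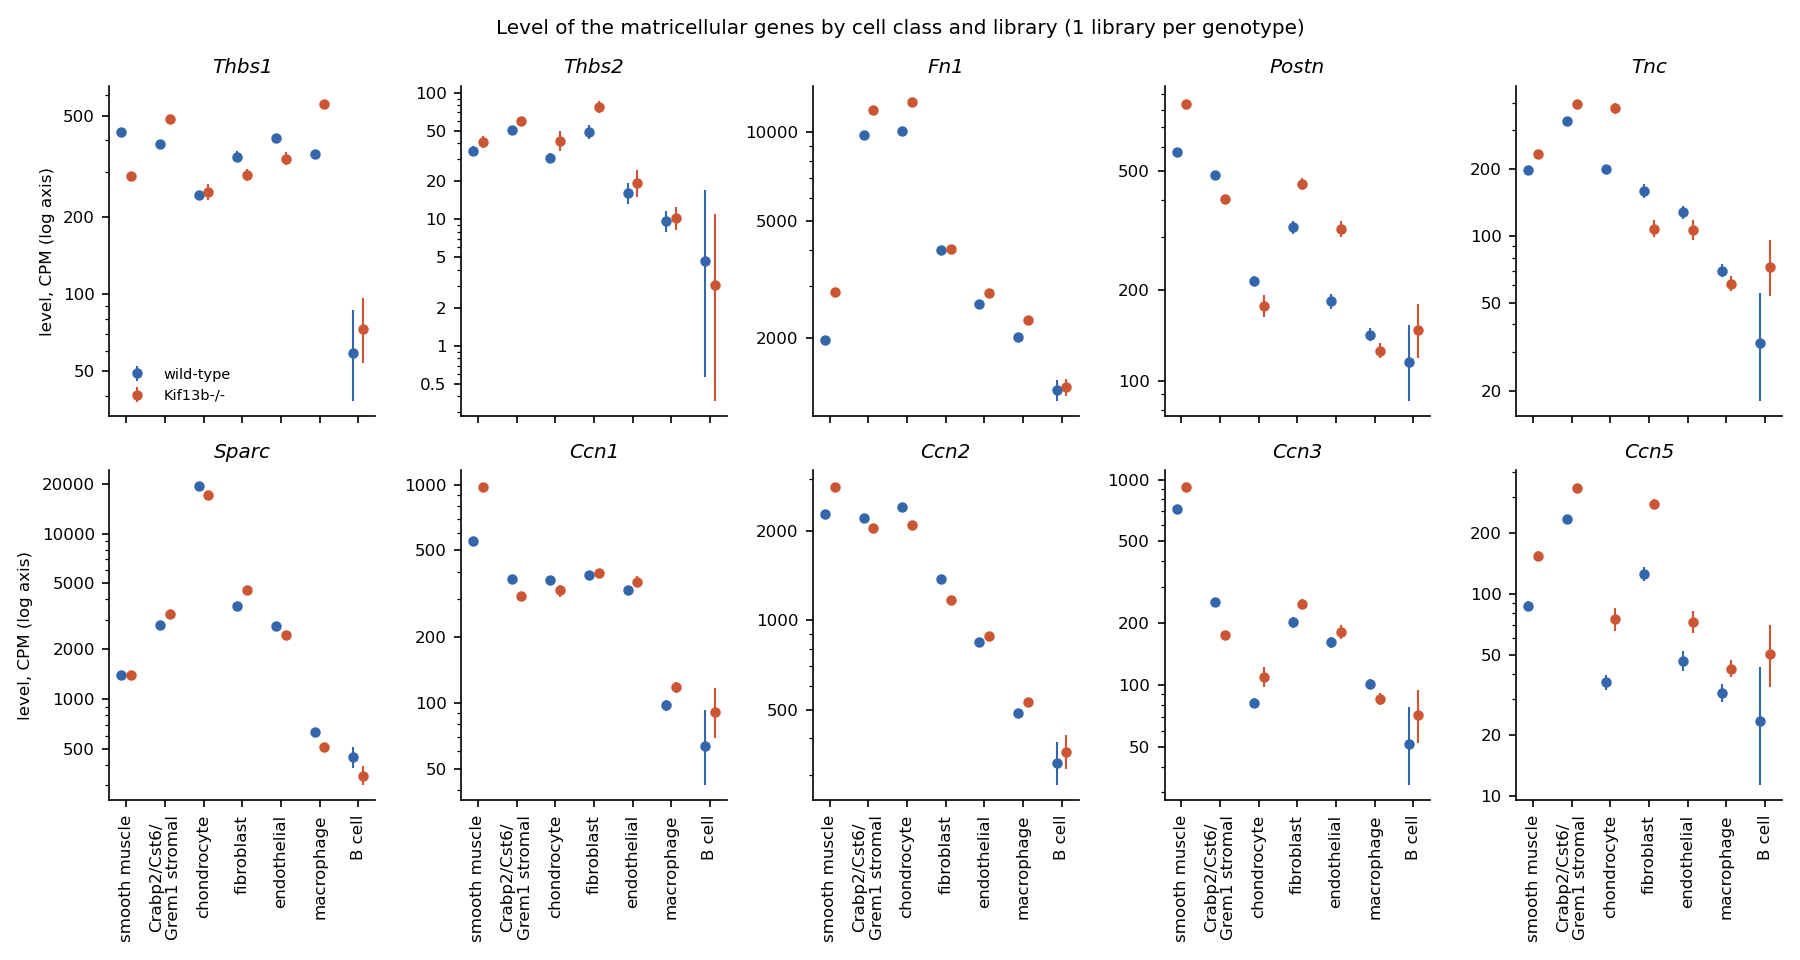
Level of each gene in CPM (log axis, a separate scale for each gene) in 6 cell classes and in B cell-like cells as a reference for free RNA, 1 point per library (blue wild-type, red Kif13b-/-), bars are exact 95% Poisson intervals. Thbs1 differs least among the 6 classes and Sparc most, and the B cell-like point lies below all 6 classes for all 10 genes in the wild-type library and for all but Postn, Tnc and Ccn5 in the Kif13b-/- library.

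Between the libraries, 9 of the 60 gene and class pairs were at least 1.5-fold higher in the Kif13b-/- library and 0 were as much lower. By class these were 2 of 10 genes in smooth muscle-like cells (Ccn1, Ccn5), where 6.13% of all genes with at least 20 UMIs were as much higher and 4.28% as much lower. No gene of the 10 passed in the stromal cluster (4.83% and 5.5% of all genes). In chondrocyte-like cells 2 were higher (Tnc, Ccn5; 9.29% and 10.2% of all genes), and in fibroblast-like cells 2 (Thbs2, Ccn5; 6.85% and 7.57%). In endothelial-like cells 2 were higher (Postn, Ccn5; 6.53% and 8.33%), and in macrophage-like cells 1 (Thbs1; 4.84% and 7.84%). The median log2 ratio of the 10 genes, Kif13b-/- over wild-type, ran from 0.10 in macrophage-like to 0.32 in smooth muscle-like cells, where the medians of all genes were -0.02 and 0.01. The plot of ratios by class gives every pair.

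**Figure D2:**
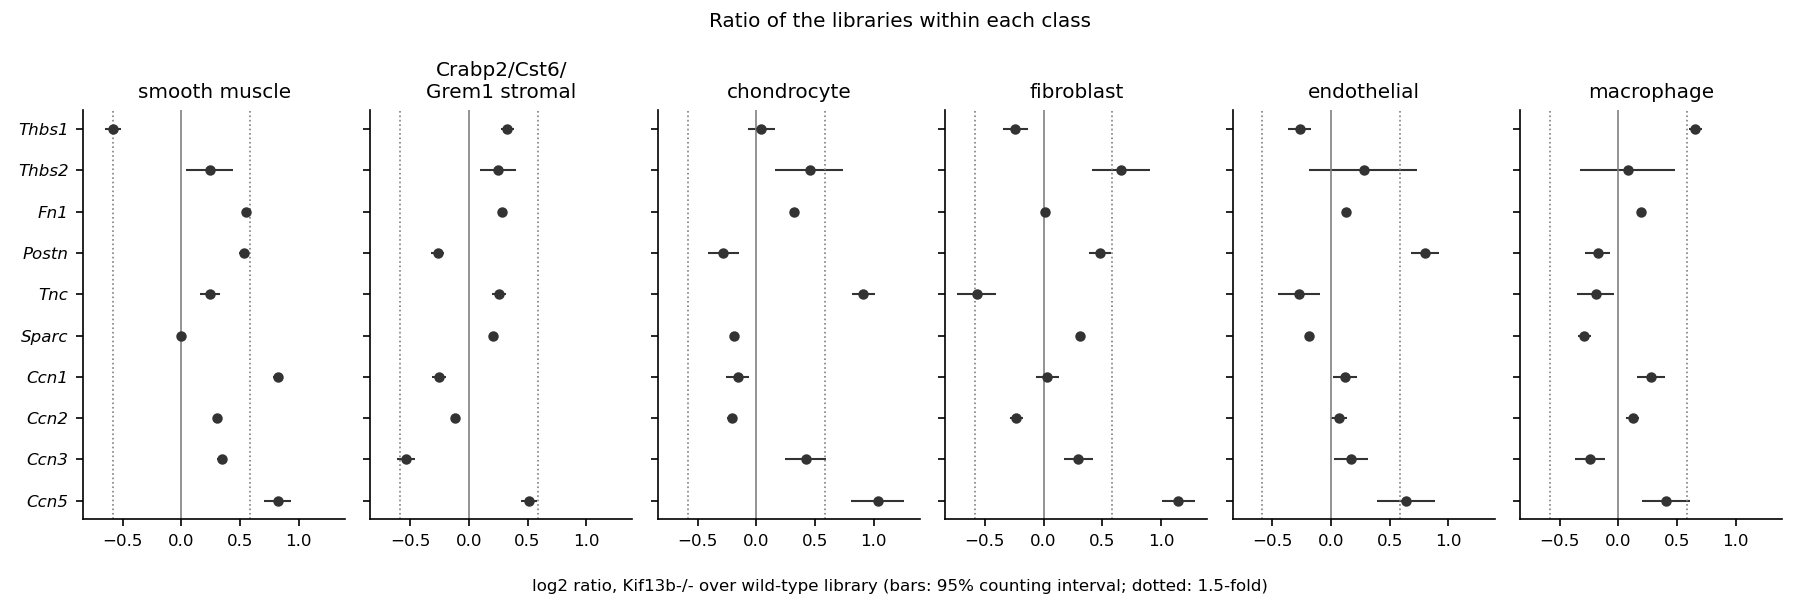
Log2 ratio of the Kif13b-/- over the wild-type level for each gene (rows of points) in each of the 6 classes (panels); bars are exact 95% counting intervals and dotted lines mark a 1.5-fold ratio. Ccn5 lies right of 0 in all 6 panels, whereas Thbs1 lies at -0.58 in smooth muscle-like and 0.66 in macrophage-like cells.

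Thbs1, thrombospondin 1, activates latent TGF-beta and signals through CD36 and CD47. In smooth muscle-like cells it was at 433 CPM (95% interval 422 to 445) in the wild-type library against 289 CPM (278 to 301) in the Kif13b-/- one. The Kif13b-/- level was lower there, a log2 ratio of -0.58 (-0.65 to -0.51). In macrophage-like cells the order was the other way, 353 CPM (342 to 364) against 556 CPM (541 to 571), a log2 ratio of 0.66 (0.60 to 0.72). The stromal cluster was between these, with 386 and 484 CPM (0.33). Chondrocyte-like cells had 245 and 252 CPM, fibroblast-like 345 and 292 CPM, and endothelial-like 408 and 339 CPM, while B cell-like cells carried 59.0 and 72.7 CPM. In wild-type cells the smooth muscle-like level was closest to the endothelial-like level, and their intervals overlapped. The log2 ratio of Thbs1 in Crabp2 Cst6 Grem1 stromal cells turned to -0.15 with classes from marker scores and to -0.26 over barcodes of 2000 to 8000 UMIs.

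The lower Thbs1 sum in smooth muscle-like cells went with a different mix of its 2 clusters. Cluster 27, led by Mylk4 and Sost, had 110 and 124 CPM, and cluster 28, led by Hpse2 and Nrip2, had 913 and 824 CPM. Within each cluster the libraries were close, with log2 ratios of 0.18 and -0.15. Cluster 28 held 40.3% of the wild-type and 23.7% of the Kif13b-/- smooth muscle UMIs. With the clusters weighted alike in both libraries, the log2 ratio of Thbs1 in smooth muscle-like cells was -0.08. The same clusters differed in other genes too: Postn was at 854 and 1038 CPM in cluster 27 but 167 and 182 CPM in cluster 28. Ccn5 showed the same contrast, 130 and 190 CPM against 23.7 and 36.5 CPM. Thbs1 transcripts were therefore abundant in the smooth muscle cluster with little Postn and Ccn5, and scarce in the one with much of both.

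Among macrophage-like cells the Thbs1 difference lay in cluster 11, which had all 8 macrophage markers raised. Its level was 302 CPM (289 to 315) in the wild-type library against 597 CPM (578 to 616) in the Kif13b-/- one, a log2 ratio of 0.98 (0.91 to 1.06). In this cluster 6.35% of all genes were at least 1.5-fold higher and 8.44% as much lower. Clusters 0 and 1 had 436 and 508 CPM (0.22) and 427 and 421 CPM (-0.02). Stromal RNA was scarce in cluster 11, where Acta2 reached 209 and 150 CPM, and Dcn 58.4 and 46.8 CPM. Clusters 0 and 1 held 1587 to 3631 CPM of Acta2 and 2020 to 3615 CPM of Dcn. A finer split of cluster 11 placed most of its Thbs1 in cells led by Retnla, Ly6c2 and Chil3, the last pair monocyte genes, with 715 CPM over 340 wild-type and 2004 CPM over 165 Kif13b-/- barcodes (log2 ratio 1.49, 1.41 to 1.57). The make-up of this finer group also differed between the libraries. Log2 ratios were 1.13 for Ly6c2, 1.15 for Plac8 and 1.02 for Chil3, genes of monocytes. They were -1.01 for Mrc1 and -2.16 for Ccl8, genes of resident macrophages, and -0.42 for C1qa, a macrophage gene. Their part in the Thbs1 ratio was not tested. Cells led by Cd5l and Ctsk had 42.9 and 57.3 CPM, and cycling cells led by Aspm 8.35 and 24.5 CPM on 7 and 12 UMIs. Neutrophil-like cells (84 and 43 barcodes) had more Thbs1 than any of the 6 classes, 1379 CPM (1217 to 1557) and 3435 CPM (3102 to 3794), a log2 ratio of 1.32. The plot of Thbs1 by cluster sets these levels side by side. The log2 ratio of Thbs1 in macrophage-like cells had the opposite sign when putative doublets were kept (-0.041) and at a finer clustering (-0.41). With barcodes thinned to 1000 UMIs, a Thbs1 UMI was found in 21.6% (wild-type) and 25.6% (Kif13b-/-) of macrophage-like cells (34.4% and 41.9% unthinned), against 7.76% and 7.32% of B cell-like cells. The T cell-like shares were 21.8% and 21.2%.

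**Figure D3:**
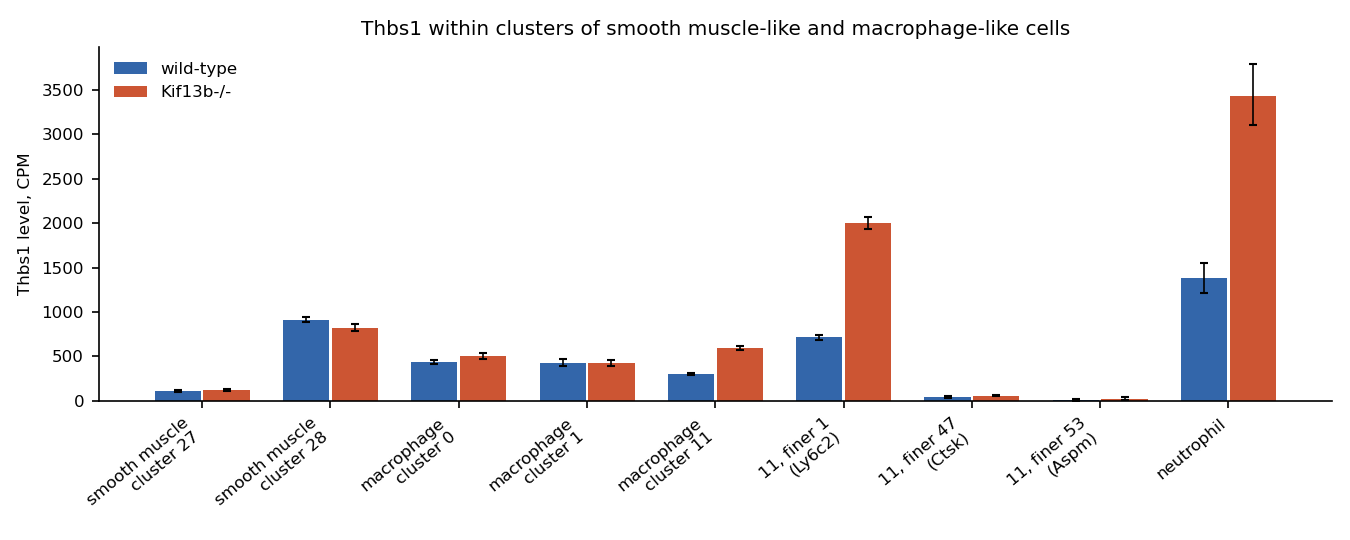
Thbs1 level in CPM (linear axis from 0) in the 2 smooth muscle-like clusters, the 3 macrophage-like clusters, 3 finer groups of macrophage cluster 11 with a leading gene in brackets, and neutrophil-like cells; bars are sums per library and error bars exact 95% Poisson intervals. Smooth muscle cluster 28 is far above cluster 27 in both libraries, and the red bar is well above the blue one in the Ly6c2 group (715 and 2004 CPM) and in neutrophil-like cells (1379 and 3435 CPM).

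Thbs2, thrombospondin 2, regulates collagen fibril assembly and restrains angiogenesis. It was sparse, with 2580 wild-type and 2534 Kif13b-/- UMIs over all analysed barcodes. In fibroblast-like cells it was at 49.3 CPM (43.1 to 56.1) and 77.7 CPM (69.8 to 86.2), a log2 ratio of 0.66 (0.41 to 0.90), and it was higher in both fibroblast clusters (0.71 and 0.83). 1 Kif13b-/- fibroblast-like barcode alone held 45 of the 353 UMIs. With barcodes thinned to 1000 UMIs, 3.86% of wild-type and 4.96% of Kif13b-/- fibroblast-like cells had a Thbs2 UMI, with overlapping intervals. Smooth muscle-like cells had 34.7 and 40.9 CPM, the stromal cluster 50.4 and 59.9 CPM, and chondrocyte-like cells 30.6 and 41.9 CPM. Endothelial-like cells (16.1 and 19.5 CPM) and macrophage-like cells (9.68 and 10.2 CPM) did not differ between libraries beyond counting error.

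Fn1, fibronectin, forms fibrils that integrins read on the cell surface. It was highest in chondrocyte-like cells, 10082 and 12618 CPM, and in the stromal cluster, 9752 and 11847 CPM. Most of the stromal cluster lay in a part led by Hmga2 and Folr2, with 14085 and 16143 CPM, and a part led by Grik2 and Folh1, with 4947 and 5167 CPM. The Hmga2 part made up 45.2% of the cluster's wild-type and 60.3% of its Kif13b-/- barcodes, and the Grik2 part 44.1% and 37.0%. The remaining barcodes were in neither. Log2 ratios within the parts were 0.20 and 0.06. Fibroblast-like cells had 3981 and 4012 CPM, endothelial-like cells 2610 and 2851 CPM, and macrophage-like cells 2015 and 2305 CPM. Smooth muscle-like cells had 1973 CPM (1949 to 1998) and 2883 CPM (2848 to 2918), the largest Fn1 ratio among the 6 classes (log2 0.55, 0.52 to 0.57). There Fn1 and Thbs1 went opposite ways, and unlike Thbs1, Fn1 was higher within both clusters, by 0.34 in cluster 27 and 0.84 in cluster 28. The ratios of the other classes were 0.28 in the stromal cluster, 0.32 for chondrocyte-like, 0.01 for fibroblast-like, 0.13 for endothelial-like and 0.19 for macrophage-like cells. B cell-like cells carried 1335 and 1364 CPM, much of it in 1 barcode of each library as given above, so no class is read against that level. Macrophage cluster 11 had 714 and 903 CPM.

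Postn, periostin, binds integrins and cross-links collagen in remodelling tissue. Smooth muscle-like cells had 577 CPM (564 to 591) in the wild-type library against 835 CPM (817 to 855) in the Kif13b-/- one, a log2 ratio of 0.53. The ratio was smaller within the clusters, 0.28 and 0.12, and cluster 27, which holds most Postn, made up more of the Kif13b-/- class. Endothelial-like cells had 184 CPM (174 to 194) and 320 CPM (301 to 339), a log2 ratio of 0.80 (0.68 to 0.92). This excess was uneven: cluster 24 had 208 and 575 CPM, cluster 30 120 and 284 CPM, and cluster 23 245 and 260 CPM. The wild-type level of cluster 30 was close to the 116 CPM of wild-type B cell-like cells. The richest Kif13b-/- endothelial-like barcode held 95 of the 1101 Postn UMIs. Among thinned endothelial-like cells 15.7% and 20.5% had a Postn UMI, with overlapping intervals. The shares were 28.2% and 30.3% of T cell-like and 8.62% and 8.54% of B cell-like cells. What part free RNA had in the endothelial ratio was not tested. The endothelial log2 ratio of Postn ran from 0.48 to 0.96 over the 15 other settings. Fibroblast-like cells, at 324 and 452 CPM, also divided, with log2 ratios of 0.72 in cluster 6, led by Pi16, and -0.59 in cluster 15, led by Cpxm1 and Il33. Postn was lower in the Kif13b-/- stromal cluster (485 and 403 CPM) and in chondrocyte-like cells (215 and 177 CPM). The chondrocyte-like log2 ratio, -0.28, turned to 0.33 with classes from marker scores. Its Kif13b-/- level was also not far above the 147 CPM of Kif13b-/- B cell-like cells. Macrophage-like cells had 142 and 126 CPM, close to the 116 and 147 CPM of B cell-like cells, and their counts are not read as expression. In these sums the Postn ratio thus had different signs in neighbouring stromal cells.

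Tnc, tenascin C, is a hexameric glycoprotein made at sites of tissue strain and injury. The stromal cluster had the highest level, 332 and 395 CPM (log2 ratio 0.25). Chondrocyte-like cells had 201 CPM (194 to 208) and 378 CPM (356 to 401), a log2 ratio of 0.91 (0.81 to 1.01). The excess was seen in cluster 7, led by Col11a1 and Col2a1 (181 and 395 CPM), whereas cluster 25, led by Omd and Snorc, had 271 and 282 CPM with an interval of the ratio that spans 0. The excess was also small at matched depth: the log2 ratio of Tnc in chondrocyte-like cells was 0.17 with each barcode thinned to 1000 UMIs, and 0.14 over barcodes of 2000 to 8000 UMIs. Fibroblast-like cells went the other way, 161 CPM (149 to 173) and 108 CPM (98.9 to 118), and Tnc was lower in both of their clusters (-0.50 and -0.74). Among thinned fibroblast-like cells 12.8% and 10.8% had a Tnc UMI, with overlapping intervals. Smooth muscle-like cells had 198 and 234 CPM, endothelial-like 129 and 107 CPM and macrophage-like 70.0 and 61.2 CPM, against 33.0 and 72.7 CPM in B cell-like cells.

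Sparc, an acidic calcium-binding protein that escorts collagen, was the most class-restricted of the 10. Chondrocyte-like cells had 19496 CPM and 17070 CPM (log2 ratio -0.19), and the next class, fibroblast-like, 3664 and 4545 CPM (0.31). The stromal cluster had 2818 and 3256 CPM (0.21), endothelial-like cells 2750 and 2422 CPM (-0.18), smooth muscle-like cells 1397 and 1395 CPM and macrophage-like cells 629 and 515 CPM. B cell-like cells carried 443 and 344 CPM. Over all analysed barcodes, in contrast, Sparc was at 5425 and 2857 CPM, a log2 ratio of -0.93, larger than in any of the 6 classes. Chondrocyte-like cells made up 14.9% of wild-type but 4.49% of Kif13b-/- barcodes, and held 70.6% and 29.8% of all Sparc UMIs. The plot of where each gene's UMIs lay shows this shift. Within the endothelial class Sparc was highest in cluster 23 (7282 and 5335 CPM), which also carried Col2a1, a cartilage collagen gene, at 2801 and 4429 CPM. The endothelial log2 ratio of Sparc turned to 0.12 without cluster 23 and to 0.27 with classes from marker scores.

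**Figure D4:**
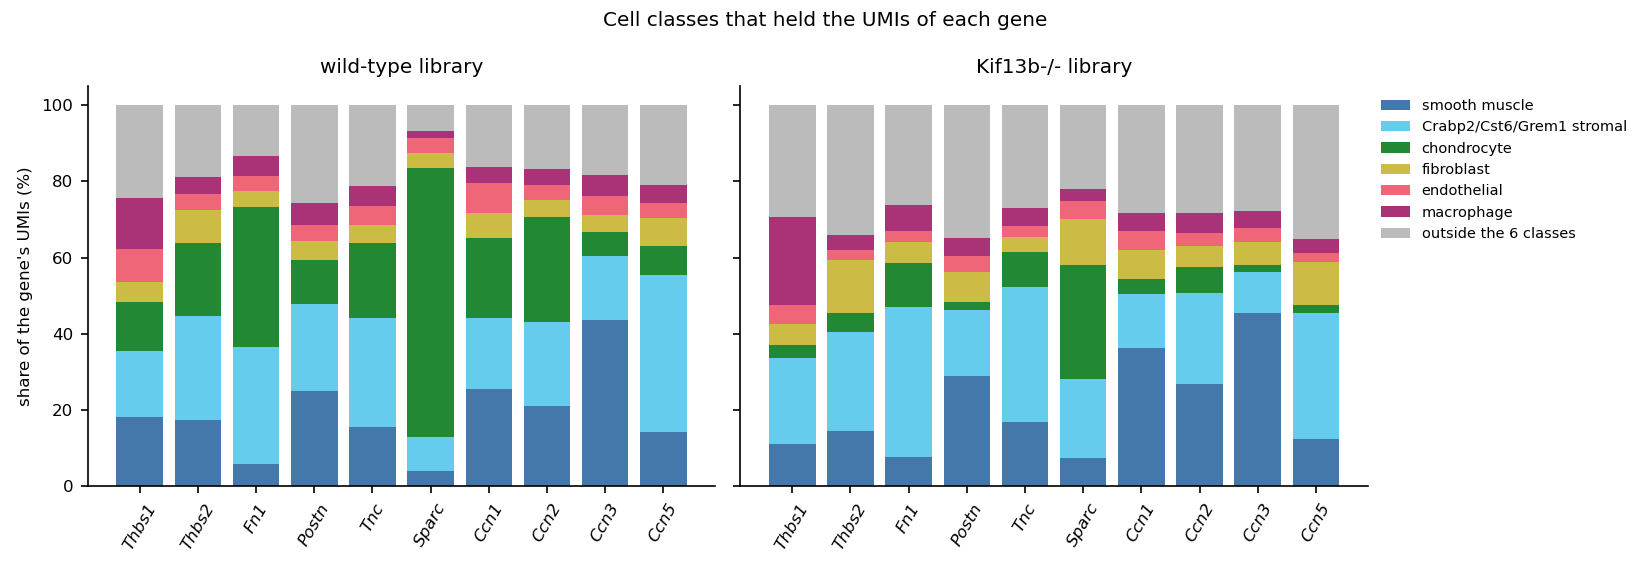
Share of each gene's UMIs (percent of all analysed barcodes of a library) held by the 6 classes and by all other barcodes, wild-type library left and Kif13b-/- library right. The green chondrocyte-like block of Sparc is 70.6% in the wild-type library against 29.8% in the Kif13b-/- one, and smooth muscle-like cells hold 43.7% and 45.4% of Ccn3.

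Ccn1 (CYR61) is a CCN protein that binds integrins and promotes adhesion and migration. In smooth muscle-like cells it was at 551 CPM (538 to 564) in the wild-type library against 974 CPM (953 to 994) in the Kif13b-/- one, a log2 ratio of 0.82 (0.78 to 0.87). It was higher in both clusters, by 0.83 and 0.54, and the ratio stayed between 0.71 and 0.91 over the 15 other settings tried. With barcodes thinned to 1000 UMIs, 33.4% of wild-type and 47.9% of Kif13b-/- smooth muscle-like cells had a Ccn1 UMI, against 5.17% and 7.32% of B cell-like cells. The T cell-like shares were 22.7% and 18.2%. No other class showed a ratio of this size. The stromal cluster had 369 and 310 CPM (-0.25), chondrocyte-like cells 366 and 328 CPM (-0.16), fibroblast-like 385 and 394 CPM (0.03), endothelial-like 331 and 360 CPM (0.12) and macrophage-like 97.5 and 118 CPM (0.28).

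Immediate early and heat shock genes respond to tissue dissociation. Of 13 such genes 2 (Jun and Hspa1b) were at least 1.5-fold higher in Kif13b-/- smooth muscle-like cells (all genes, 6.13%). Ratios above 1 were seen for 12 of the 13, with a median log2 ratio of 0.27, where 7032 of all 13776 genes were above 1 and their median was 0.01. Jun, an AP-1 subunit, was at 669 and 1010 CPM there (0.59) and Hspa1b, a heat shock protein gene, at 418 and 628 CPM (0.59). Fos was at 2595 and 2865 CPM (0.14), and Nr4a1 was the exception, with 556 and 483 CPM (-0.20). In the other 5 classes the list median lay between -0.18 and -0.04. Their part in the Ccn1 ratio was not tested. Ankrd1, a further target of YAP, was at 26.1 and 52.8 CPM in smooth muscle-like cells (log2 ratio 1.02). It was the only one of 12 TGF-beta and YAP target genes beyond 1.5-fold there (all genes, 6.13% higher and 4.28% lower). The median of that list was 0.08. Of the same list 1 of 12 was as much higher in chondrocyte-like cells (all genes, 9.29%). As much lower were 1 of 11 in fibroblast-like (7.57%) and 1 of 11 in macrophage-like cells (7.84%).

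**Figure D5:**
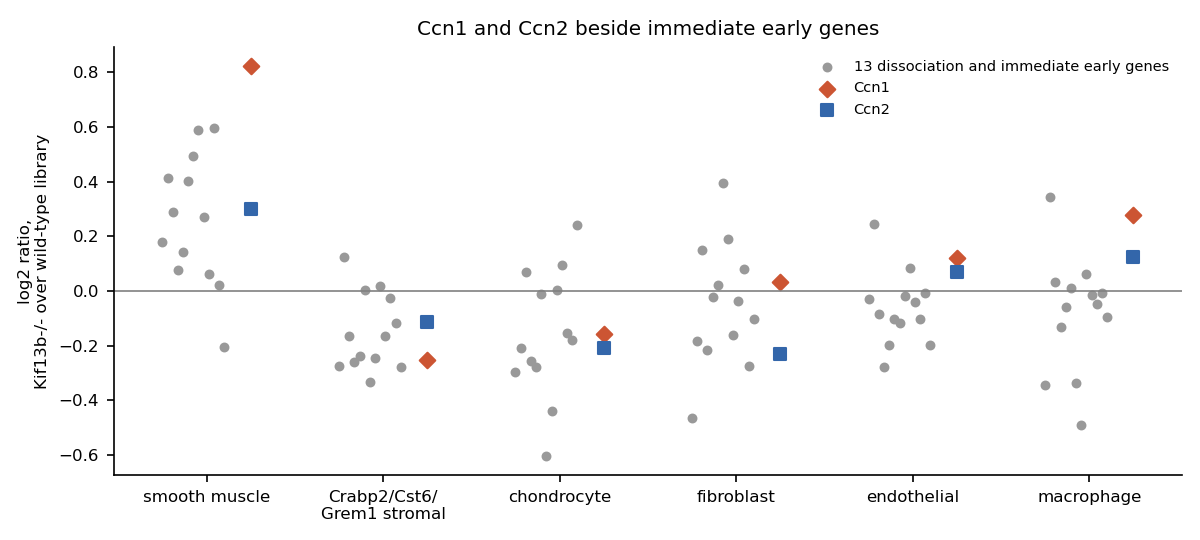
Log2 ratio of the Kif13b-/- over the wild-type level (linear axis, 0 marked) for Ccn1 (red diamonds), Ccn2 (blue squares) and 13 dissociation and immediate early genes (grey points) in the 6 classes. In smooth muscle-like cells 12 of the 13 grey points lie above 0 and Ccn1 lies above them at 0.82, while in the stromal cluster 10 lie below 0.

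Ccn2 (CTGF), a profibrotic partner of TGF-beta, was at similar levels in smooth muscle-like cells (2297 and 2825 CPM), the stromal cluster (2224 and 2054 CPM) and chondrocyte-like cells (2422 and 2097 CPM). Its log2 ratio in smooth muscle-like cells was 0.30 (0.27 to 0.32), and it was negative in the stromal cluster (-0.11), chondrocyte-like (-0.21) and fibroblast-like cells (1377 and 1173 CPM, -0.23). Endothelial-like cells had 845 and 886 CPM, macrophage-like 489 and 533 CPM and B cell-like 330 and 361 CPM. In these sums Ccn2 had the sign of Ccn1 in 5 of the 6 classes, at a smaller ratio in smooth muscle. Fibroblast-like cells were the exception, but their Ccn1 ratio of 0.03 kept its sign in only 10 of 15 other settings. The endothelial-like Ccn2 ratio of 0.07 kept its sign in 12 of 15.

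Ccn3 (NOV), which restrains smooth muscle growth, was the most smooth muscle-centred of the CCN genes. Smooth muscle-like cells had 721 CPM (707 to 736) and 918 CPM (898 to 938), and the next class had 2.83-fold and 3.70-fold less. The log2 ratio was 0.35 in smooth muscle-like cells and -0.53 (-0.62 to -0.45) in the stromal cluster, where the levels were 255 and 176 CPM. The Hmga2 and Grik2 parts of the stromal cluster both had less Ccn3 in the Kif13b-/- library, with log2 ratios of -0.74 and -0.29. Elsewhere Ccn3 was uneven: fibroblast cluster 15 had 174 and 338 CPM (0.95) and chondrocyte cluster 25 had 242 and 502 CPM (1.05). The clusters with most UMIs of these classes, fibroblast cluster 6 and chondrocyte cluster 7, had ratios of 0.08 and 0.11. Cluster 25 held 1412 wild-type and 139 Kif13b-/- barcodes, against 1070 and 170 in cluster 7. As classes, fibroblast-like cells had 202 and 248 CPM, endothelial-like 162 and 182 CPM, chondrocyte-like 81.6 and 109 CPM and macrophage-like 101 and 85.7 CPM. The macrophage-like log2 ratio, -0.24, kept its sign in only 9 of 15 other settings, and the part of free RNA in it was not tested.

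Ccn5 (WISP2), the CCN protein that lacks the C-terminal domain of the others, was the only one of the 10 whose ratio had an interval above 0 in the sums of all 6 classes, macrophage-like cells included, where its counts are not read as expression. Of 11639 genes with at least 20 UMIs in each class, 0.88% met the same condition. Fibroblast-like cells had 125 CPM (115 to 136) and 278 CPM (263 to 294), a log2 ratio of 1.15 (1.01 to 1.29). Chondrocyte-like cells had 36.4 and 74.5 CPM (1.04), smooth muscle-like cells 86.9 and 154 CPM (0.82), and endothelial-like cells 46.4 and 72.3 CPM (0.64). The highest level was in the stromal cluster, 232 and 331 CPM (0.51), and macrophage-like cells had 32.2 and 42.6 CPM (0.40). The ratio was above 0 in each of the 14 clusters that make up the 6 classes, from 0.28 in endothelial cluster 21 to 1.76 in endothelial cluster 30. The mix of clusters differed as well. Smooth muscle cluster 27, which holds most of the class's Ccn5, made up 59.7% (wild-type) and 76.3% (Kif13b-/-) of smooth muscle UMIs, and the ratios within clusters 27 and 28 were 0.55 and 0.62. Endothelial cluster 30 made up 14.2% and 27.7% of endothelial UMIs. Over the settings tried the smooth muscle ratio fell to as little as 0.50 and the endothelial one to 0.28, both short of 1.5-fold. B cell-like cells had 23.6 CPM (11.3 to 43.4) and 50.01 CPM (34.4 to 70.2), a log2 ratio of 1.04 (0.03 to 2.27). The Kif13b-/- value rests on 33 UMIs, 12 of them in 1 barcode, and the part of free RNA in the ratios was not tested. Both macrophage-like levels lie within those B cell-like intervals and are not read as expression. The wild-type chondrocyte-like level lies within them as well. In thinned fibroblast-like cells 10.3% and 19.1% had a Ccn5 UMI, against 2.59% and 4.88% of B cell-like cells. The T cell-like shares were 6.395% and 21.2%, the latter with an interval of 8.98% to 38.9%. The Kif13b-/- fibroblast-like share was thus not above the T cell-like one. The fibroblast, smooth muscle and stromal ratios all stayed above 0 in the 15 other settings, with the fibroblast ratio between 0.70 and 1.33.

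Of 18 other matricellular genes, 14 or 15 had at least 20 UMIs in each class. In smooth muscle-like cells 2 of 14 were at least 1.5-fold higher in the Kif13b-/- library and 3 lower, against 6.13% and 4.28% of all genes. Spp1, osteopontin, was lower there, with 749 and 389 CPM (log2 ratio -0.95), as was Sparcl1, a relative of Sparc, with 1269 and 816 CPM (-0.64). Sparcl1 was also lower in chondrocyte-like (126 and 75.5 CPM) and fibroblast-like cells (232 and 152 CPM). Comp, thrombospondin 5, was higher in fibroblast-like cells at 165 and 355 CPM (1.10) and also in smooth muscle-like ones, 12.9 and 22.9 CPM (0.83). Smoc2, a Sparc relative, had 17.6 and 32.3 CPM in smooth muscle-like cells (0.87) but was lower in chondrocyte-like cells at 365 and 180 CPM (-1.02). Thbs4 had 66 UMIs in wild-type fibroblast-like cells and 0 in Kif13b-/- ones, at least 21.6-fold lower with a floor of 3 counts over the class. The Thbs4 difference was not confined to fibroblast-like cells: macrophage-like cells had 49 and 0 UMIs, at least 13.3-fold lower with the same floor. The part of free RNA in this was not tested.

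In chondrocyte-like cells 5 of 14 such genes were higher and 2 lower (all genes, 9.29% and 10.2%). Among the higher ones were Smoc1 at 109.5 and 177 CPM and Tnn, tenascin W, at 35.2 and 59.0 CPM. The stromal cluster had 1 of 14 higher (4.83% of all genes), Tgfbi at 63.3 and 106 CPM (0.74). Fibroblast-like cells had 1 of 15 higher and 3 lower (all genes, 6.85% and 7.57%). Endothelial-like cells had 1 of 14 higher and 2 lower (6.53% and 8.33%), and macrophage-like cells 0 of 15 and 2 (4.84% and 7.84%). Of the 17 receptor genes, 16 had enough UMIs in smooth muscle-like cells and 17 in each other class. None was at least 1.5-fold higher in any class, where the share of all genes ran from 4.83% to 9.29%. As much lower were 2 in the stromal cluster (5.5% of all genes), 2 in the fibroblast-like class (7.57%) and 2 in the endothelial-like class (8.33%). It was 1 each in the smooth muscle-like (4.28%) and chondrocyte-like classes (10.2%), and 0 among macrophage-like cells (7.84%). Cd36, a thrombospondin receptor, was lower in smooth muscle-like (5.52 and 1.91 CPM) and fibroblast-like cells (22.7 and 8.36 CPM), and Sdc4, a fibronectin co-receptor, in endothelial-like cells (354 and 172 CPM, log2 ratio -1.05). Of 12 genes for TGF-beta ligands, receptors and latency proteins, Tgfb3 was lower in smooth muscle-like cells (180 and 116 CPM, -0.64). Ltbp2, a latent TGF-beta binding protein relative, was higher in fibroblast-like cells (256 and 470 CPM, 0.87) and smooth muscle-like cells (24.8 and 39.6 CPM, 0.67). In endothelial-like cells Tgfbr3 was higher (124 and 195 CPM) and Ltbp1 lower (266 and 166 CPM).

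Genes with the most similar pattern were found by Pearson's r of log2(CPM + 1) over the 12 class and library levels, among 11106 genes with at least 500 UMIs. The levels share 2 libraries, and r is a description. For Ccn1 they were Jun (0.96), Zbtb4 (0.96) and Cdr2 (0.95), for Ccn2 Rcn2 (0.98), Rftn2 (0.97) and Lclat1 (0.97), for Ccn3 Tbxa2r (0.99), Zfp809 (0.98) and Mfn2 (0.98), and for Ccn5 they included Nucb1 (0.96) and Tmem222 (0.96). For Thbs2 they were Efemp2 (0.99), Dnajc3 (0.99) and Mpg (0.98), for Fn1 Rrbp1 (0.97), Arfgap3 (0.97) and Slc29a1 (0.96), and for Postn Acad9 (0.97), Ecsit (0.97) and Zfp251 (0.96). Tnc was closest to C2cd5 (0.95), Shisa4 (0.94) and Bdnf (0.93), and Sparc to Spata1 (0.97), Npas3 (0.96) and Sugct (0.96). Thbs1 had the weakest matches, Gdpd1 (0.87), Galm (0.84) and C2cd2l (0.83).

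Of the cells outside the 6 classes, cluster 29 (1512 and 453 barcodes) met no class's markers and had Eln, Thbs1 and Postn among its leading genes. It carried both Acta2, at 4977 and 5858 CPM, and Lum, at 4958 and 4775 CPM. Lum was listed as a marker of both the fibroblast and the stromal class. A finer group led by Cst6 and Mmp13 made up 51.8% and 57.0% of its barcodes, so cluster 29 could also hold modulated cells. 4 of the 10 genes were at least 1.5-fold higher in its Kif13b-/- barcodes, where 6.08% of all genes were as much higher and 8.37% as much lower. They were Thbs2 (47.2 and 143.7 CPM, log2 ratio 1.61), Postn (815 and 1274 CPM, 0.64), Ccn5 (239 and 383 CPM, 0.68) and Ccn1 (427 and 643 CPM, 0.59). The Thbs2 excess lay mainly in 1 finer group, led by Cxcl5 and Clca3a2, with 45.0 and 320.7 CPM (43 UMIs in 131 wild-type and 195 in 56 Kif13b-/- barcodes, log2 ratio 2.82). The other finer groups with UMIs in both libraries had ratios of -0.14, -0.20 and 0.73. Thbs1 was at 944 and 998 CPM, Ccn2 at 3122 and 3874 CPM and Ccn3 at 505 and 743 CPM.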

How the data were processed

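The deposited files hold UMI counts, 1 gene-by-barcode matrix per library, made by the authors with Cell Ranger 8.0.1 per the file headers and mm10 per the submitters' processing notes, from 10x 3' v3.1 libraries per the labels. The 10 genes and the gene lists were chosen with earlier results of these data known. No column was unused (0). Of 33696 features 31961 matched GENCODE M21.

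Barcodes were kept from 500 UMIs and 300 genes upward if mitochondrial genes gave 20% of UMIs or less (19832 wild-type, 7315 Kif13b-/-). The automatic threshold of Scrublet called 0 and 1 doublets and so had not worked. Instead the highest-scoring 3146 (15.9%) and 428 (5.85%) were removed, an expected share of 0.8% per 1000 barcodes.

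Clusters came from scanpy 1.11.5 with igraph 0.11.9: 2000 variable genes with the library as batch key, 30 principal components, 15 neighbours, Leiden resolution 1 and seed 1, without integration of the libraries. The 10 genes were kept out of the variable genes (3 would have been among them). A cluster was named where at least 3 and 50% of a class's markers were raised 2-fold and detected in 10% of its cells, by a mean log2 margin of 1 over the next class, with at least 30 cells and at least 10 per library. These naming limits were chosen with the clusters in view.

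UMIs were summed per class and library and divided by all UMIs of the class (CPM). Log2 ratios used a prior count of 0.5. Poisson intervals, intervals of ratios and Clopper-Pearson intervals of shares of thinned barcodes are exact, at 95%, from scipy 1.17.1. The ratio code was tested on simulated data. A ratio of 1.5 is called higher or lower, and no p value was computed.

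Named genes were the 10 in every class and, from each list and class, up to 3 genes beyond 1.5 in each direction with the most UMIs (at least 20). Not every gene that met this rule is named in the text. The 3 genes most like each of the 10 by r were named as well, except 1 that is not reported here. Jun, Hspa1b, Fos and Nr4a1 stand for the immediate early list, and Fos and Nr4a1 were chosen after their values were seen. Finer groups, neutrophil-like and pericyte-like cells were read after the class values were seen. Alternatives were the depth, mitochondrial, doublet, weighting, thinning, class and clustering choices given with the limits.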

Additional observations from a re-analysis of the deposited data

Results flagged for a closer look

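4 genes had log2 ratios of opposite sign in 2 classes, with both counting intervals apart from 0 and at least 1 of the ratios beyond 1.5-fold. Of 11639 genes with at least 20 UMIs in each class, 600 (5.2%) met the same condition, a share that was not matched on depth. None of these differences was tested, since there is 1 library per genotype. Thbs1 in macrophage-like minus smooth muscle-like cells differed by 1.24 on the log2 scale, and Tnc in chondrocyte-like minus fibroblast-like cells by 1.48. Postn in endothelial-like minus chondrocyte-like cells differed by 1.08, as did Ccn1 in smooth muscle-like minus Crabp2 Cst6 Grem1 stromal cells (1.08). The chondrocyte-like Postn ratio turned to 0.33 with classes from marker scores. With 1 library per group no sample could be set apart from the others of its group.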

How the results depend on the processing

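No paired analysis was possible because each genotype has 1 library. Of the 60 gene and class pairs, 30 kept their sign in every setting run (up to 15 per pair), and so did 8 of the 9 pairs at least 1.5-fold higher. The exception was the log2 ratio of Thbs1 in macrophage-like cells: -0.041 with doublets kept, -0.41 at Leiden resolution 2 and -0.021 with 1 cluster per class. The number of pairs higher was 9, but 14 with classes from marker scores and 21 over barcodes of 2000 to 8000 UMIs. The number of pairs lower was 0, but 1 with the 10 genes among the variable genes, with doublets kept, with each barcode weighed the same, with ratios centred on the median of all genes, and over barcodes of 2000 to 8000 UMIs. It was 2 with at least 2000 UMIs, at resolution 2 and with the cluster of most UMIs alone, and 3 with at most 10% mitochondrial UMIs and with barcodes thinned to 1000 UMIs. The number of genes with the same highest class was 6 to 8. The cause was not tested. The settings on matched depth, on the cluster of most UMIs, on clusters weighted alike and without endothelial cluster 23 were chosen after seeing the data. Small counts limit Thbs2 in endothelial-like and macrophage-like cells, and free RNA sets a floor for every class.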

Other observations

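Outside the 6 classes, pericyte-like cells (187 wild-type and 76 Kif13b-/- barcodes) were rich in several of the 10 genes. Postn was at 617 CPM (563 to 675) and 1657 CPM (1551 to 1769) there, a log2 ratio of 1.42, larger than its ratio in any of the 6 classes. Tnc was at 629 and 651 CPM, Thbs1 at 1005 and 758 CPM, and Thbs2 at 42.9 and 89.9 CPM.

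Cluster 10, also unnamed, had 10 wild-type and 1287 Kif13b-/- barcodes with C1qa, a macrophage gene, at 675 CPM and Dcn at 3238 CPM in the latter. Their median mitochondrial share was 15.3%. Its Kif13b-/- barcodes held 55440 Fn1 UMIs (5116 CPM), 23123 Sparc UMIs (2134 CPM) and 2534 Ccn5 UMIs (234 CPM).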
